A study of Mus musculus with 305 samples.

Results

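The replication-dependent histone genes encode the core histones H2A, H2B, H3 and H4 and the linker histone H1, and lie in clusters on a few chromosomes. They were taken as every protein-coding gene of the count table whose symbol starts with Hist1h, Hist2h, Hist3h or Hist4h in the GENCODE M21 annotation. This gave 67 genes of 52636 in the table, namely 6 H1, 18 H2A, 18 H2B, 12 H3 and 13 H4 genes. The chromosome 13 cluster holds 54 of them, chromosome 3 holds 10, chromosome 11 holds 2 and chromosome 6 holds 1. Total RNA depleted of ribosomal RNA was sequenced from 6 brain regions of 51 wild-type male mice, so RNA without a poly(A) tail was kept. The regions were the prefrontal cortex (PFC), nucleus accumbens (NAc), dorsal striatum (dStri), basolateral amygdala (BLA), ventral hippocampus (vHPC) and ventral tegmental area (VTA).

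Every mouse had self-administered saline or heroin, an opioid, intravenously for 15 d. In the S24 group (saline) and the H24 group (heroin), tissue was taken at 24 h of withdrawal. The other 4 groups went through 30 d of withdrawal, a challenge with saline or heroin and a drug-seeking test of 2 h. SS mice had saline in both phases, SH mice had saline and then a heroin challenge, HS mice had heroin and then a saline challenge, and HH mice had heroin in both phases. Each group had 7 to 11 libraries per region, 1 per mouse. All groups share the genotype and the intravenous route of self-administration; strain and age are not given in the sources used here. The tissue was bulk, so fewer cells of a type and less RNA per cell cannot be told apart. BLA and VTA gave 50 libraries each and the other regions 51, after 1 VTA library of an HH mouse with 0.89 M counts was left out. The libraries used held 19.3 to 61.4 M counts (median 31.5 M). Levels are counts per M library counts (CPM), and levels between genes are compared as CPM per kilobase of exon.

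Cells that copy their DNA make these histones in S phase, when newly made DNA has to be packed. Their messenger RNAs end in a short stem-loop in place of a poly(A) tail, and the stem-loop binding protein SLBP and the U7 small nuclear ribonucleoprotein cut the transcript just after it. Neurons no longer divide and draw largely on replacement variants such as H3.3, H2A.Z and H1.0, which are polyadenylated. Some cluster genes are known to be read through to a polyadenylated form in differentiated cells.

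The stem-loop is what sets the class apart, so the sites of 9 members described in the results are shown, at least 1 from each class but H2A, with 5 bases on each side, and capitals mark the 16-base match. The search asked for GG, 2 bases of any kind, CTTTT, 1 base of any kind, AG, 2 of any kind and CC after the stop codon in the GENCODE transcripts (mm10).
Hist1h4h: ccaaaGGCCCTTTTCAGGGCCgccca
Hist1h4d: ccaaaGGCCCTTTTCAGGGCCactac
Hist1h4j: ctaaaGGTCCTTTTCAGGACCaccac
Hist1h1c: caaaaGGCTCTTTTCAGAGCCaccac
Hist1h1d: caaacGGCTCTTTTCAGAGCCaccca
Hist1h1e: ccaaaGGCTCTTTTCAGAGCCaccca
Hist1h2bm: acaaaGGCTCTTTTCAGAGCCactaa
Hist1h3b: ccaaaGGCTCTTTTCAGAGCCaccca
Hist1h3e: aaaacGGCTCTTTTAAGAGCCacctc
A match was found in 43 of the 67 members, starting 22 to 59 bases after the stop codon (median 32). The 11 H4 matches had GGCC or GGTC at the base of the stem, whereas every match in H1, H2A, H2B and H3 had GGCT. The loop and its flanks read CTTTTCAG in most members and CTTTTAAG in 1 H1, 2 H2B and 3 H3 genes, and CTTTTTAG in 2 H4 genes and 1 H2A gene. Among members with 100 or more annotated bases after the stop codon, 25 of 31 (80.7%) held the match in those 100 bases, against 3 of 19865 other protein-coding genes (0.0151%). Those 3 were H2afx, H2bfm and Lrrc75b, and the reverse complement occurred in none of either set. Of the 24 members without a match, 18 have gene models that end under 100 bases after the stop codon, so the match may lie outside the annotated exon.

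The gene models differ in where they end. In 22 members the annotated exon runs over 100 bases past the stem-loop. It runs 770 bases past it in Hist1h4d, 840 in Hist1h1c, 1153 in Hist1h1e, 2445 in Hist4h4 and 4884 in Hist1h1d. In 21 members the model stops within 100 bases of it, as in Hist1h4h, where 46 bases follow. Counts of the longer models therefore hold reads from any transcript that runs past the stem-loop as well as reads from the short form.

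The counts of H2A genes were limited by the annotation. The library kit kept the strand, per the labels, but the strand setting of the counting is not given in the sources used here. In the table, 31 of 35 protein-coding genes whose exons lie wholly under exons of the opposite strand were at 0 in every library (88.6%), against 4.90% of the 15421 protein-coding genes with no overlap. All 18 H2A genes have exon bases under another gene, against 6 of the 49 other members. Levels of H2A genes are thus compared between regions and groups, but not with those of other classes. Of the members, 5 genes, Hist2h2aa1, Hist2h2aa2, Hist2h2bb, Hist2h3c1 and Hist2h3b, lie wholly under other genes and were at 0 in all libraries, as was Hist1h2aa. A further limit is sequence identity: in 28 members under 50% of the 100-base windows of the transcript are unique to the gene, so values of near-identical copies such as Hist1h4k, Hist1h4m, Hist1h4n, Hist1h3b, Hist1h3h, Hist1h2bl and Hist1h2bn are uncertain.

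H4 genes gave most of the histone signal. Over the 6 regions, the mean of the median levels was 198 CPM per kilobase for Hist1h4h (chr13:23531050-23531519), 104.6 for Hist1h4d (chr13:23581598-23582735), 95.8 for Hist1h4c, 72.02 for Hist1h4k and 49.0 for Hist1h4f. The next in order were Hist1h2bc at 31.1, Hist3h2ba at 30.1, Hist1h3e at 29.7, Hist1h1c at 24.7, Hist1h4m at 23.3, Hist1h1e at 22.2 and Hist1h4a at 20.6 CPM per kilobase. This order depends on where the gene models end, since a longer model lowers the level per kilobase. In CPM, Hist1h4d (119.1, model of 1138 bases) lay above Hist1h4h (93.06, model of 470 bases). In CPM, the 13 H4 genes held a median of 51.7% (VTA) to 60.9% (PFC) of the summed level of all members. H1 genes held 13.4% (NAc) to 20.6% (VTA), and H2B genes 12.8% (PFC) to 16.7% (VTA). A median of at least 1 CPM was reached in at least 1 region by 48 of the 67 members, and in all 6 regions by 34.

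**Figure D1:**
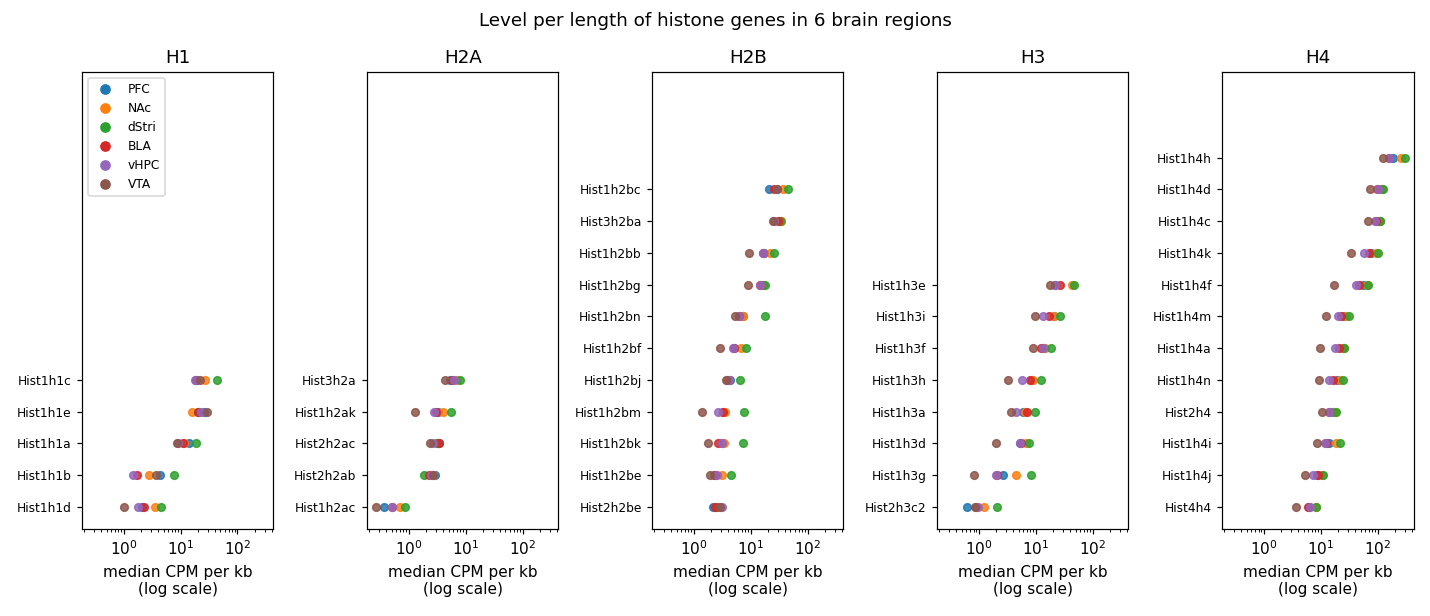
Median level per exon length (CPM per kilobase, log axis) of the members whose median averaged at least 1 CPM over the 6 regions, by histone class, with 1 point per region. Hist1h4h is highest at 125 (VTA) to 300 (dStri) CPM per kilobase, and the VTA point is the lowest in most rows; H2A levels cannot be set against the other classes.

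The level of the class differed between regions. The summed level of all members was highest in dStri (609 to 1322 CPM, median 993) and NAc (550 to 1057, median 848). It was lower in PFC (511 to 927, median 711), BLA (432 to 898, median 663) and vHPC (491 to 778, median 647), and lowest in VTA (352 to 612, median 514). VTA and dStri overlapped by only a few CPM, whereas the ranges of PFC, BLA and vHPC lay largely over each other. Of 42 members with a mean of at least 1 CPM over all libraries, 35 had their highest median in dStri and 35 their lowest in VTA. This is a description, since a high region can carry a gene over that mean: Hist1h3b, with medians of 0.34 to 0.73 CPM outside dStri, reached it through dStri.

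Each region was then set against the mean of the other 5, with the mouse as a block (edgeR's quasi-likelihood test, Benjamini-Hochberg adjustment over all 21609 genes tested, adjusted p under 0.05). The filter on low counts passed 53 of the 67 members; the 14 others were the 6 at 0, and Hist1h1t, Hist1h2af, Hist1h2ah, Hist1h2an, Hist1h2ao, Hist1h2ap, Hist1h2ba and Hist1h2br, at 0.022 to 0.11 CPM. In dStri, 47 members were higher, against a background of 37.5% of all genes, and 2 were lower (Hist1h1e and Hist2h2ab; background 37.3%). In VTA, 46 were lower (background 43.6%) and 3 were higher, Hist1h1e, Hist1h1b and Hist2h2be (background 38.7%). In NAc, 37 were higher (background 37.4%) and 2 lower (background 35%). In vHPC, 28 were lower (background 34.5%) and 5 higher (background 33.5%). In PFC, 19 of the 53 members were higher (35.85%, background 35.6%) and 10 lower (18.87%, background 34.7%). In BLA, 7 were higher (13.21%, background 31.4%) and 20 lower (37.74%, background 30.8%). The median log2 difference of the tested members was 0.69 in dStri, 0.29 in NAc, 0.08 in PFC, -0.08 in BLA, -0.19 in vHPC and -0.78 in VTA, while that of all genes lay between -0.05 and 0.01. Region and the day or batch of tissue and library preparation, which the labels do not give, cannot be told apart.

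**Figure D2:**
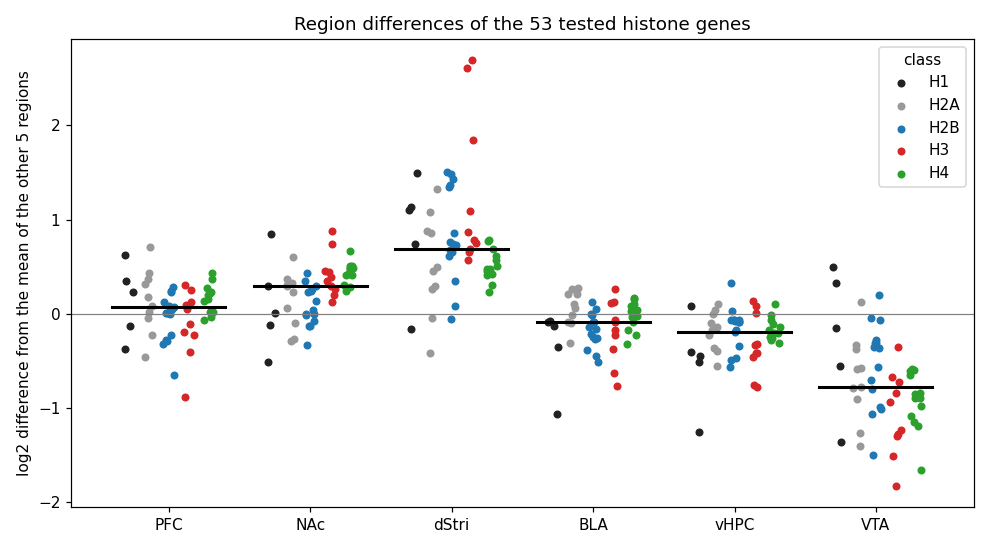
Log2 difference of each of the 53 tested members between a region and the mean of the other 5, by class; black bars are medians. Most points lie above 0 in dStri (median 0.69) and NAc (0.29) and below 0 in VTA (-0.78), with Hist1h3c and Hist1h3b as the 2 highest points in dStri.

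All 10 H3 and all 13 H4 genes tested were higher in dStri and in NAc and lower in VTA. The lead in dStri was greatest in a few H3 genes at low levels. Hist1h3b (chr13:23752267-23752886) was at 1.05 to 7.67 CPM in dStri (median 3.51), whereas its medians in the other regions were 0.34 (VTA) to 0.73 CPM (NAc). Every VTA library, 0.044 to 0.97 CPM, lay below every dStri library, and 1 NAc library reached 4.05 CPM. Its difference was 2.61 (SE 0.11) on the log2 scale (edgeR adjusted p = 1.2e-65). Hist1h3c differed by 2.69 (SE 0.11), Hist1h3g by 1.84 (SE 0.08), and the H2B genes Hist1h2bn and Hist1h2bm by 1.501 (SE 0.07) and 1.488 (SE 0.08). The median of Hist1h3c was 3.28 CPM in dStri and 0.28 to 0.77 CPM elsewhere, so its values outside dStri rest on few reads.

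The abundant genes differed less. Hist1h4h was at 61.2 to 202 CPM in dStri (median 140.9) and at 27.0 to 89.7 CPM in VTA (median 58.8). It was 0.78 (SE 0.04) higher in dStri on the log2 scale and 0.65 (SE 0.05) lower in VTA. Hist1h4f, another H4 gene, stood out in VTA at 3.46 to 12.4 CPM (median 6.595), where the libraries of the other regions were at 9.71 to 39.3 CPM (median 21.2). Only the upper end of VTA overlapped the lower end of the others, and the difference was -1.66 (SE 0.05; edgeR adjusted p = 4.6e-102). Hist1h3e was 0.74 (SE 0.04) higher in NAc, at 18.2 to 46.7 CPM (median 36.5), and 0.40 (SE 0.04) lower in PFC. In PFC, the H4 genes Hist1h4a and Hist1h4f were 0.43 (SE 0.04) and 0.37 (SE 0.04) higher, and Hist1h2bc was 0.65 (SE 0.04) lower, at 16.7 to 33.3 CPM (median 24.6). In BLA, Hist1h3a was 0.26 (SE 0.06) and Hist1h4j 0.17 (SE 0.06) higher. In vHPC and VTA, Hist2h2be, an H2B gene on chromosome 3, was 0.33 (SE 0.04) and 0.20 (SE 0.04) higher, and Hist3h2a was 0.11 (SE 0.04) higher in vHPC. In these 5 comparisons of BLA, vHPC and VTA the ranges of the libraries lay largely over each other. With the saline mice only, the calls of Hist1h3a (0.16) and Hist1h4j (0.18) in BLA and of Hist3h2a (0.08) in vHPC were lost (edgeR adjusted p = 0.27, 0.168 and 0.321).

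**Figure D3:**
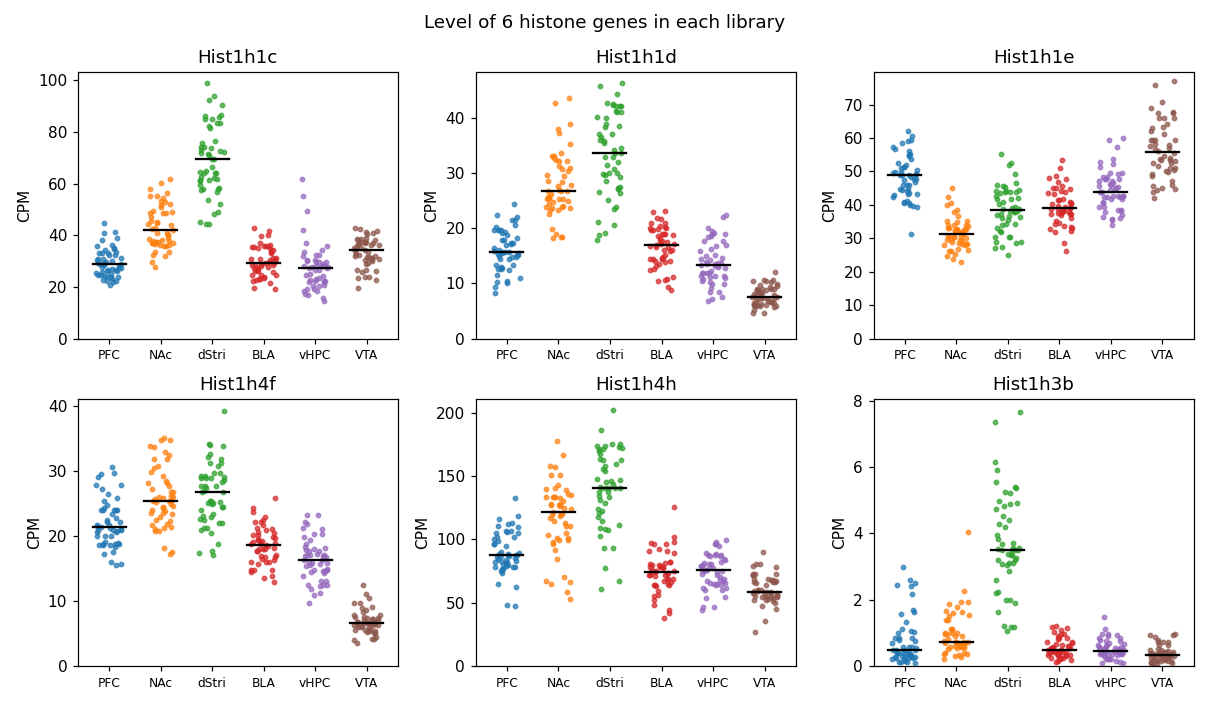
Level in CPM of 6 members in each library, by region; black bars are medians. Hist1h1c and Hist1h1d are highest in dStri and NAc, Hist1h1e is highest in VTA (median 55.8) and lowest in NAc (31.2), Hist1h4f is lowest in VTA, and Hist1h3b is above 1 CPM in all dStri libraries.

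The linker histones, which bind where DNA enters and leaves the nucleosome, did not move together. Hist1h1c, the gene of H1.2, was at 44.3 to 99 CPM in dStri (median 69.3), 1.10 (SE 0.04) above the mean of the other regions on the log2 scale. Its medians were 42.1 CPM in NAc and 27.5 to 34.1 CPM in the other 4 regions, whose ranges overlap. Hist1h1d, the gene of H1.3, was higher in dStri by 1.14 (SE 0.03) and in NAc by 0.84 (SE 0.04), and lower in VTA by 1.37 (SE 0.04; log2 difference -1.37). Its medians were 33.6, 26.7 and 7.54 CPM in these regions. Hist1h1e, the gene of H1.4, was highest in VTA instead: 42.2 to 77.1 CPM in VTA (median 55.8), 25.1 to 55.3 CPM in dStri (median 38.5) and 22.8 to 45.2 CPM in NAc (median 31.2). It differed by 0.50 (SE 0.03) in VTA, -0.17 (SE 0.03) in dStri and -0.51 (SE 0.03) in NAc, and all 3 passed the test.

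The ratio of Hist1h1c to Hist1h1e, taken within each library, therefore separated the striatal regions from the rest. Its median was 1.80 in dStri (1.07 to 2.38) and 1.33 in NAc (0.86 to 2.07), against 0.73 in BLA, 0.60 in PFC, 0.60 in vHPC and 0.59 in VTA. The lowest dStri ratio lay above the highest ratio of PFC (0.78), VTA (0.78) and vHPC (1.05) and just above that of BLA (1.07), whereas NAc overlapped BLA and vHPC. Hist1h1e shares 25.7% of its exon bases with its neighbour Hist1h2be on the same strand. Hist1h1b, the gene of H1.5, which is known from dividing cells, was at 2.22 to 11.2 CPM in dStri (median 5.74), 1.498 (SE 0.07) higher on the log2 scale. It was lowest in vHPC (median 1.07 CPM, -1.25, SE 0.09) and BLA (median 1.26 CPM, -1.07, SE 0.09), and Hist1h1a, the gene of H1.1, was 0.74 (SE 0.04) higher in dStri. Hist1h1t, known from the testis, was at 0.043 CPM.

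H1f0, which encodes the replacement linker histone H1.0, had medians of 52.6 CPM in dStri and 52.1 in NAc, against 76.9 to 92.8 CPM in the other 4 regions. The median of H1f0 over Hist1h1c was 0.79 in dStri, 1.21 in NAc and 2.62 to 3.59 elsewhere, in CPM and not per length. Of 11 replacement variant genes, 7 were higher in dStri (H2afv by 0.72, H3f3a by 0.51 and H2afx by 0.38 on the log2 scale among them) and 3 lower; in VTA 2 were higher and 9 lower. Their summed level moved less than that of the members, with medians of 467 (BLA) to 531 CPM (dStri).

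Among 13 genes of histone RNA 3′ end formation, 7 were higher and 4 lower in dStri. Lsm11, a protein of the U7 particle, was the most region-dependent: its median was 5.51 CPM in dStri and 8.67 in NAc, against 30.8 in PFC, 40.6 in VTA, 43.8 in BLA and 89.6 in vHPC. Slbp had medians of 8.62 CPM in dStri and 10.7 in NAc, against 16.0 to 22.8 CPM elsewhere. Both were low where the histone genes were high, with differences of -2.49 (SE 0.07) and -0.89 (SE 0.04) on the log2 scale in dStri. Npat, the coactivator of histone genes at the cluster, had medians of 41.7 to 48.7 CPM in the 6 regions. Of 15 histone chaperone genes, 10 were higher and 2 lower in dStri, while their summed level was lowest there (median 1097 CPM, against 1165 to 1289 CPM in the other regions).

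Genes of S phase and mitosis were highest in dStri too: 14 of 19 were higher and 1, Mcm6, was lower. Top2a, the topoisomerase of mitotic chromosomes, was at 2.33 to 16.0 CPM in dStri (median 8.47), with medians of 0.62 to 1.88 CPM elsewhere. Mki67, the Ki-67 antigen of cycling cells, had a median of 8.41 CPM in dStri and of 0.67 (VTA) to 3.84 CPM (NAc) elsewhere. Pcna did not pass in dStri (log2 difference -0.008, SE 0.02). Ependymal markers, which mark the ventricle wall beside dStri, were higher there in 5 of 5 genes, with a summed median of 32.4 CPM and a range of 14.6 to 62.4, against medians of 7.54 in NAc and 36.1 in vHPC. In vHPC that sum ranged from 3.03 to 113.1 CPM. Of 7 newborn neuron genes tested, 4 were higher and 3 lower in dStri. The short RNAs Rmrp, Rn7sk and Rpph1, which likewise lack a poly(A) tail, also differed between regions: Rmrp by 1.04 (SE 0.08) in dStri, 0.90 (SE 0.08) in NAc and -0.97 (SE 0.10) in VTA, and Rn7sk by 0.39, 0.55 and -0.50. Rpph1 was 0.20 and 0.26 higher in dStri and NAc, missed the threshold in VTA (-0.09, edgeR adjusted p = 0.136) and was lowest in vHPC (-0.30). Other cell types differed as well: oligodendrocyte markers were higher in VTA in 10 of 10 genes (median log2 difference 2.11), and microglia markers higher and meningeal fibroblast markers lower in dStri in 8 of 8 genes each (medians 0.26 and -1.11). The part of these genes, cells and RNAs in the region differences was not tested.

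Markers of the striatum, of excitatory neurons and of dopamine neurons were highest in the regions they are known from, and the hippocampal list was not. The summed level of 6 striatal genes was at least 3418 CPM in dStri and 1897 CPM in NAc, and at most 1268 CPM elsewhere. That of 6 cortical and hippocampal excitatory neuron genes had medians of 1197 to 1844 CPM in PFC, BLA and vHPC and 9.75 to 16.4 CPM in the other 3. That of 5 dopamine neuron genes had a median of 2880 CPM in VTA, where the lowest library was at 194 CPM and the highest BLA library at 298.6 CPM. The 5 hippocampal genes had a summed median of 831 CPM in NAc, above the 503 CPM of vHPC. Of the libraries used, 5 stood apart from their region by rank correlation (3 of BLA, 1 of dStri, 1 of vHPC) and 2 of vHPC were nearest to BLA. Without the first 5, the members called higher in dStri were 49 and those called lower in VTA 46. Without the other 2 they were 48 and 46. The shares of all genes called in these 2 fits are not given here.

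Within dStri, part of the class followed Mki67 and Top2a across libraries. The mean of log2(CPM + 0.1) of Mki67 and Top2a was set against that of each of the 46 members with a median of at least 1 CPM in dStri. This was done within the 24 h groups (n = 19) and within the 30 d groups (n = 32), 92 correlations in all, each tested by 100000 permutations (2-sided, Benjamini-Hochberg adjusted). The treatment groups of a cohort were pooled and their means were not taken out, so differences between groups can enter these correlations. Of the 19 genes of S phase and mitosis only Mki67 and Top2a were used, both higher in dStri. Correlations with the others, such as Pcna, are not given here. In both cohorts Hist1h1b, Hist1h2bl, Hist1h2bm and Hist1h3b were positively correlated. Hist1h1b had r = 0.85 and rho = 0.86 at 24 h (permutation adjusted p = 0.000307 and 0.00138), and r = 0.59 and rho = 0.54 at 30 d (adjusted p = 0.00315 and 0.0144). Without the 2 libraries farthest from the median of the Mki67 and Top2a mean, its r was 0.80 and 0.46. Hist1h2bm had r = 0.79 and rho = 0.80 at 24 h and r = 0.61 and rho = 0.55 at 30 d (permutation adjusted p = 0.00069 and 0.00207, and 0.00315 and 0.0144), and r = 0.74 and 0.56 without the 2 farthest. Hist1h3b had r = 0.73 and rho = 0.68 at 24 h and r = 0.51 and rho = 0.46 at 30 d (permutation adjusted p = 0.00414 and 0.0144, and 0.0185 and 0.0508), so its rank correlation at 30 d missed the threshold. In the 30 d groups 15 members passed by r, Hist1h3a with the highest value (r = 0.78, rho = 0.76, permutation adjusted p = 0.000307 and 0.00092), but at 24 h Hist1h3a did not (r = 0.37, rho = 0.49, adjusted p = 0.284 and 0.14). At 24 h 5 passed, and no member was negatively correlated past the threshold in either cohort. The share of all genes that would pass this test was not counted, so these counts are not a result particular to the members.

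Hist1h4h, the highest gene per length, did not pass. It had r = -0.12 and rho = 0.09 at 24 h and r = -0.19 and rho = -0.20 at 30 d (permutation adjusted p = 0.805 and 0.855, and 0.514 and 0.517). Of the 12 highest genes per length, only Hist1h1e passed by r, at 30 d (r = 0.50, rho = 0.46, permutation adjusted p = 0.0217 and 0.0508); at 24 h it did not (r = 0.29, rho = 0.29, permutation adjusted p = 0.432 and 0.426). Without the 2 farthest libraries its r was 0.39 and 0.11. Hist4h4 on chromosome 6, whose model runs far past the stem-loop, had r = 0.06 and rho = 0.10 at 24 h and r = -0.31 and rho = -0.30 at 30 d (permutation adjusted p = 0.874 and 0.826, and 0.249 and 0.256). The 30 d mice fall into 2 sample sets by the codes of their BLA libraries. Within set 1 (n = 19) and set 2 (n = 13), r was 0.56 and 0.69 for Hist1h1b, 0.53 and 0.77 for Hist1h2bm, and 0.52 and 0.55 for Hist1h3b. Across the other 5 regions the 4 genes gave 40 such correlations, with r from 0.0068 to 0.82. By r, 11 of the 40 had a permutation adjusted p under 0.05 over the 40, and 1 rho was below 0 (Hist1h2bl in VTA at 24 h, -0.035). Here too the share of all genes was not counted. Hist1h3b in PFC had the highest r, 0.82 in the 24 h groups and 0.80 in the 30 d groups, with rho = 0.78 and 0.68.

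**Figure D4:**
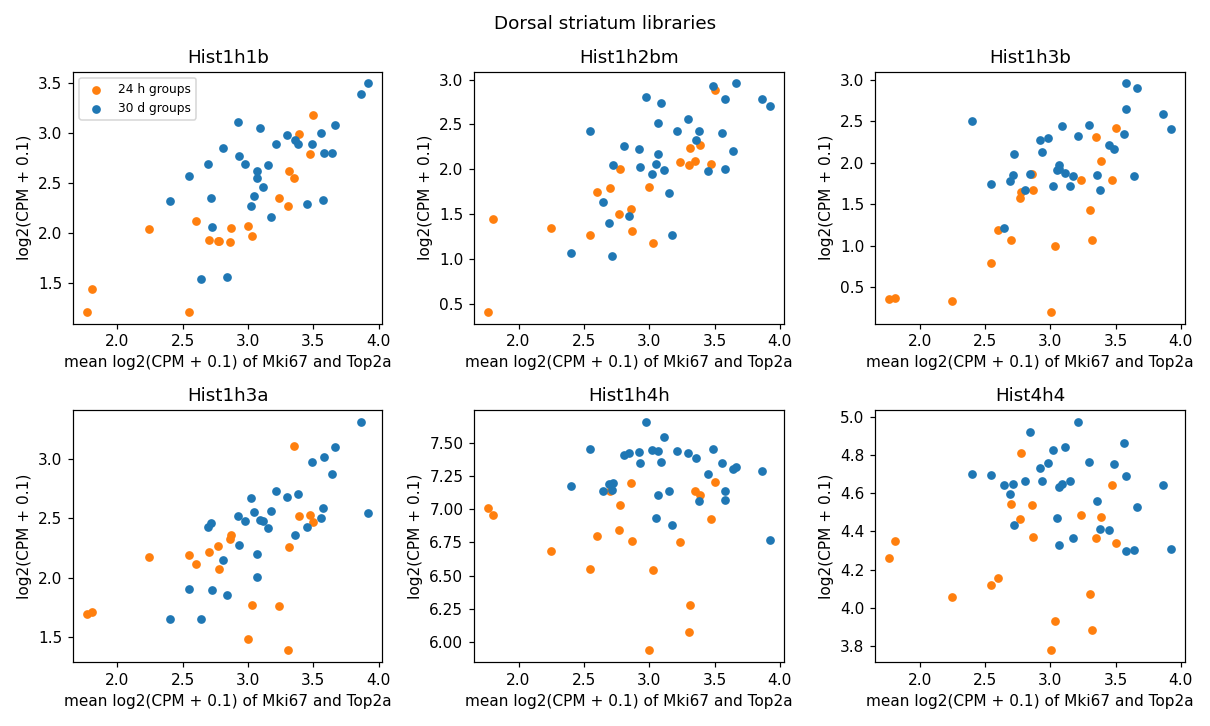
Level of 6 members against the mean level of Mki67 and Top2a, both as log2(CPM + 0.1), in the dStri libraries of the 24 h groups (n = 19) and the 30 d groups (n = 32). Hist1h1b, Hist1h2bm and Hist1h3b rise from left to right in both cohorts; Hist1h4h and Hist4h4 show no such trend.

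In the same dStri libraries the summed ependymal markers followed Mki67 and Top2a with rho = 0.76 at 24 h and 0.29 at 30 d, and the newborn neuron genes with rho = 0.31 and 0.69. Rn7sk went the other way, with rho = -0.68 and -0.53, as did Rmrp (-0.47 and -0.44). So did the summed markers of microglia (-0.81 and -0.24), of endothelial and mural cells (-0.65 and -0.44) and of blood (-0.40 and -0.47). These values are given as descriptions without a test, and the libraries share depth and dissection.

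Promoters are shown for Hist1h2bm, an H2B gene that followed Mki67 and Top2a in dStri, and for Hist1h4h, an H4 gene that did not. These genes differ in class, and motifs were not tested against the correlations. They span 250 bases before to 50 after the start in RefSeq's GRCm38.p6 annotation. Capitals mark CCAAT (the NF-Y box), the octamer ATTTGCAT and TATAAA on either strand.
Hist1h2bm promoter, chr13:21721794-21722093, + strand: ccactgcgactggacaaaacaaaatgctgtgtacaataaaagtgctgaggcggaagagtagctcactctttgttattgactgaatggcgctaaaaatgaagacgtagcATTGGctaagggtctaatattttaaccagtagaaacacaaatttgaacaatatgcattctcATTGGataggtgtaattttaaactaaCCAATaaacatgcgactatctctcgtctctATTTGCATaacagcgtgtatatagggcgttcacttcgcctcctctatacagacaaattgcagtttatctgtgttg
Hist1h4h promoter, chr13:23530794-23531093, + strand: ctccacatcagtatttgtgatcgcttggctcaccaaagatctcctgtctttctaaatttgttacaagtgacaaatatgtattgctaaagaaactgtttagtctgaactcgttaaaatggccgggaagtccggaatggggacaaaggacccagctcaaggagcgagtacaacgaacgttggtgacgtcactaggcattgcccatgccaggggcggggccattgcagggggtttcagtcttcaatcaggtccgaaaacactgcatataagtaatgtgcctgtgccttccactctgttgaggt
The Hist1h2bm promoter held 3 CCAAT matches and 1 octamer, and that of Hist1h4h held none of the motifs. Of 62 members with a RefSeq promoter, 53 (85.5%) held CCAAT, against 37.4% of all 32851 promoters. The 9 without it were all H4 genes: 3 of 12 H4 promoters held it, and every promoter of the other classes did. The octamer was in 7 of 16 H2B and 7 of 18 H2A promoters and in none of the 28 H1, H3 and H4 promoters, against 1.74% of all promoters. TATAAA was in 35 of 62 (56.5%), against 13.6%. A match is a description of these letters and not a bound site. H2A and H2B genes often share 1 divergent promoter, so their matches are not independent.

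Heroin was tested in 7 comparisons per region. H24 was set against S24, and SH, HS and HH each against SS. The 30 d groups were also compared by challenge (SH and HH against SS and HS), by history (HS and HH against SS and SH) and by their interaction. No member passed in any of the 42 comparisons with edgeR's quasi-likelihood test (adjusted p under 0.05 over all genes), and none did with DESeq2. Of 2190 member tests, 91 had an unadjusted p under 0.05 (4.16%), against 4.25% of the tests over all genes; with DESeq2 the shares were 4.66% and 4.51%. The smallest adjusted p was 0.154 with edgeR and 0.0554 with DESeq2. The background was as low: 0.235% of 19976 genes passed for challenge in PFC (47 genes), 0.015% for SH against SS in PFC, 0.00506% for SH against SS and for challenge in NAc, 0.00513% for challenge in dStri, and 0% in the other comparisons. In no comparison of 2 groups did the ranges of any tested member separate. The share of all genes whose ranges did was not counted, so this is not a result particular to the members. The comparisons with SS, challenge, history and the interaction share libraries.

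**Figure D5:**
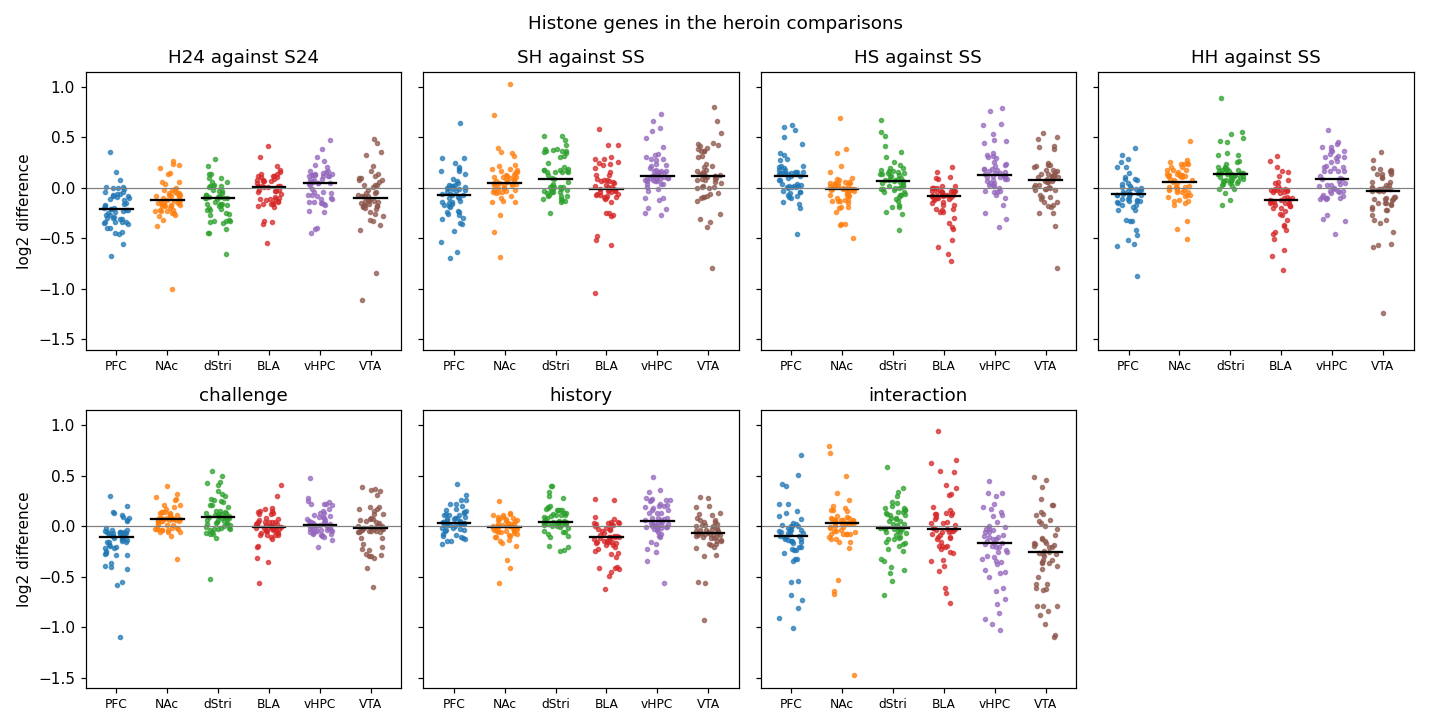
Log2 difference of each tested member in the 7 heroin comparisons, by region; black bars are medians. The medians lie between -0.25 (interaction, VTA) and 0.14 (HH against SS, dStri), and no point passed the test.

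The value with the smallest adjusted p was Hist1h1e for challenge in PFC. It was at 40.7 to 59.4 CPM in SS (median 50.4), 31.2 to 52.5 in SH (median 46.5), 51.1 to 62.2 in HS (median 57.04) and 42.4 to 51.4 in HH (median 49.0). HS was the highest group, and its range met that of HH only between 51.1 and 51.4 CPM. The difference was -0.19 (SE 0.05, edgeR adjusted p = 0.154), with 16 of 16 challenged libraries below the mean of the others, and within sets 1 and 2 it was -0.14 and -0.26. In this comparison 11 of 52 members had an unadjusted p under 0.05, against 8.94% of all genes. Each of the 11 was lower after the challenge, among them Hist1h1c (-0.27, SE 0.08), Hist1h1a (-0.25, SE 0.10) and Hist1h2bl (-0.58, SE 0.23), with adjusted p from 0.154 to 0.558. The median of the 52 was -0.10, against -0.01 for all genes. Of the 52, 43 were below 0 and 9 above, where 46.7% of all genes were above. Of the meningeal fibroblast markers, 3 of 8 fell in the same comparison, as did 1 of 8 endothelial and mural markers (medians -0.74 and -0.15), and their part was not tested.

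At 24 h of withdrawal, 47 of 52 members were lower in H24 than in S24 in PFC and 5 were higher, where 52.5% of all genes were higher. The median of the members was -0.21, against 0.01 for all genes, and 6 had an unadjusted p under 0.05, against 2.48% of all genes. Among single comparisons, the share with an unadjusted p under 0.05 was taken only here and for challenge in PFC. The members share libraries and some are near-identical, so they do not count as replicates. They leaned to 1 side in other comparisons as well, so this is not particular to PFC. For H24 against S24 in NAc 42 were lower and 10 higher, while in BLA 24 were lower and 26 higher. For HS against SS in BLA 43 were lower and 9 higher, and for SH against SS in vHPC 9 were lower and 43 higher. Hist1h2bg, an H2B gene, had the smallest p: it was at 5.16 to 10.3 CPM in H24 (median 8.79, n = 11) and 9.73 to 14.9 in S24 (median 10.9, n = 8). The groups overlapped only between 9.73 and 10.3 CPM, and the difference was -0.44 (SE 0.12, edgeR adjusted p = 0.9999). The smallest p in the other regions fell on Hist1h2bc in BLA (0.31, SE 0.14), Hist1h4f in NAc (-0.22, SE 0.09), Hist1h4j in dStri (-0.45, SE 0.19), Hist1h1a in vHPC (0.30, SE 0.13) and Hist1h4b in VTA (-1.11, SE 0.42, at 0.38 against 0.86 CPM). The medians in these regions were 0.01 in BLA, -0.12 in NAc, -0.10 in dStri, 0.05 in vHPC and -0.10 in VTA. In PFC, Rmrp, Rn7sk and Rpph1 were at -0.13, -0.10 and -0.15, with unadjusted p of 0.625, 0.307 and 0.292 in edgeR; their part in the shift was not tested.

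After a first heroin challenge (SH against SS), Hist1h3b in dStri had the smallest unadjusted p of the members in the 6 regions (0.00668). It was at 3.49 to 7.67 CPM in SH (median 4.81) and 2.22 to 4.99 in SS (median 3.53), and the groups overlapped over much of their range. The difference was 0.52 (SE 0.18, edgeR adjusted p = 0.63), and 0.55 and 0.46 within sets 1 and 2. The others were Hist1h4n in VTA (0.42, SE 0.17), Hist1h4m in PFC (0.24, SE 0.11), Hist1h2bg in vHPC (0.34, SE 0.16), and Hist2h3c2 in BLA (-0.56, SE 0.22) and NAc (-0.68, SE 0.29). For the challenge over both histories, the smallest p fell on Hist1h2bm in dStri (0.41, SE 0.16), Hist1h1b in VTA (0.37, SE 0.12), Hist1h4f in NAc (0.17, SE 0.08), Hist2h3c2 in BLA (-0.36, SE 0.16) and Hist1h2be in vHPC (0.22, SE 0.13).

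No member passed by heroin history in dStri either. By history, 42 of 54 members had a value above 0 (median 0.04), where 51.8% of all genes did. In HS against SS 36 did (median 0.07, 52.3% of all genes), and in HH against SS, which includes the challenge, 49 did (median 0.14, 51.3% of all genes). Hist1h4d had the smallest p in all 3. Its levels were 107.3 to 171.8 CPM in SS (mean 141.1), 126.6 to 157.9 in SH (median 143.6), 128.3 to 178.2 in HS (mean 157.9) and 142.7 to 173.5 in HH (mean 155.9). The ranges overlapped, with the heroin groups' means above the level of SS. By history it differed by 0.16 (SE 0.05, edgeR adjusted p = 0.609), and by 0.14 and 0.19 within sets 1 and 2. In the same comparison Rmrp, Rn7sk and Rpph1 were at 0.59 (SE 0.17), 0.28 (SE 0.08) and 0.29 (SE 0.09), and missed the threshold as well (edgeR adjusted p = 0.609, 0.609 and 0.68); their part was not tested.

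In the other regions the smallest p by history fell on Hist1h2bj in BLA (-0.43, SE 0.14), Hist1h3c in VTA (-0.93, SE 0.27, at 0.20 against 0.37 CPM), Hist1h1e in PFC (0.13, SE 0.05) and vHPC (0.13, SE 0.06), and Hist1h2bh in NAc (-0.41, SE 0.21). For HS against SS it fell on Hist1h1e in PFC (0.18, SE 0.08), Hist2h4 in vHPC (-0.39, SE 0.16), Hist1h2bj in BLA (-0.40, SE 0.20), Hist3h2ba in NAc (0.21, SE 0.14) and Hist1h3b in VTA (-0.80, SE 0.47). For HH against SS it fell on Hist1h2bb in PFC (-0.33, SE 0.12), Hist1h2bc in vHPC (0.33, SE 0.15), Hist1h4f in NAc (0.24, SE 0.11), Hist1h3b in BLA (-0.81, SE 0.38) and Hist1h3c in VTA (-1.24, SE 0.40). The interaction asks whether the challenge acted differently by history. Its medians were -0.25 in VTA and -0.17 in vHPC and -0.10 to 0.03 elsewhere, and the smallest p fell on Hist1h2bm in vHPC (-1.03, SE 0.36), Hist2h2ac in VTA (-0.79, SE 0.34), Hist1h4m in PFC (-0.33, SE 0.16), Hist3h2a in dStri (0.34, SE 0.14), Hist1h2bk in BLA (-0.76, SE 0.34) and Hist1h2bp in NAc (-1.48, SE 0.81).

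Of the genes of S phase and mitosis, replacement variants, histone RNA 3′ end formation, histone chaperones and newborn neurons, none passed in any of the 42 heroin comparisons with edgeR. In dStri the summed level of the members was lower in the 24 h groups (609 to 1036 CPM) than in the 30 d groups (894 to 1322 CPM). The 2 cohorts differ in time, in the challenge and test and in sample set, and these cannot be told apart.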

How the data were processed

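The authors deposited 1 table of raw counts per Ensembl gene for all libraries. Per the submitters' processing notes, the tools were FastQC, HISAT2, SAMtools and HTSeq on mm10; versions, annotation release and strand setting are not given in the sources used here. Each count column was matched to its sample by the code in the sample's title, and 0 columns were left without a sample. Symbols, exons and lengths came from GENCODE M21. Levels are TMM-normalised CPM (edgeR 4.0.16). The library under 5 M counts was left out. Heroin comparisons were fitted per region and cohort, with filterByExpr (minimum count 10), TMM factors, glmQLFit (prior count 1) and glmQLFTest in R 4.3.3; the 4 groups at 30 d shared 1 fit. Region comparisons used all libraries kept, with the mouse as a block, because the mouse numbers in the labels mark the same animal. The deviations of 2 regions of 1 mouse from their group means had a median correlation of 0.02 over 755 pairs, against -0.001 for different mice. DESeq2 1.42.0 and the other alternatives are in the closing section. The members, lists and tests were chosen with earlier results of these data known. Named members were the 12 highest per length, the member with the smallest p in each comparison and region, the 2 with the smallest p in each direction per region (mean of at least 1 CPM) and the H1 genes; members shown for their dStri correlation, for the size of their dStri difference or at low counts were added after their values were seen. SE is the log2 difference divided by the root of F. In simulated data, the steps called 100% of genes changed by 1 on the log2 scale for H24 against S24 in PFC (18150 genes), and 99% for SH against SS in PFC (19340 genes). The simulation gave every gene the same dispersion and changed only genes above 1 CPM, by 1 or 2 on the log2 scale. Smaller differences, such as those of most members in the heroin comparisons, were not simulated, so it cannot say how often they would be called. Replicate pairs differed by at least 7.07 times sampling noise (chi-square per degree of freedom, 1163 pairs), so no library was a copy of another.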

Additional observations from a re-analysis of the deposited data

Results flagged for a closer look

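The levels of the member with the smallest p were searched for a library far from the rest of its group, in the groups of 4 to 10 libraries of its own comparison. Chance gives about 1 in 20 such groups a mark. Of 94 groups, 9 had one, and the cause was not tested in any. Above the rest of their group lay Hist1h3b in BLA of an HH mouse (0.95 CPM, others 0.16 to 0.46), Hist1h4n in VTA of an SH mouse (6.57 CPM, others 3.92 to 4.83) and Hist1h4f in NAc of an HS mouse (33.6 CPM, others 22.3 to 27.2). So did Hist1h1b in VTA of an SS mouse (4.09 CPM, others 1.79 to 2.69), Hist1h2bj in BLA of an HH mouse (2.70 CPM, others 1.29 to 1.94), Hist1h2bp in NAc of an HH mouse (0.61 CPM, others 0 to 0.19) and Hist1h4m in PFC of an HS mouse (14.7 CPM, others 9.17 to 11.7). Below the rest lay Hist1h1e in PFC of an SH mouse (31.2 CPM, others 43.2 to 52.5) and Hist3h2a in dStri of an HH mouse (12.5 CPM, others 18.2 to 22.1).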

How the results depend on the processing

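No member passed in any heroin comparison under RLE factors, DESeq2, no filter, without the libraries that stand apart, with the sample set as a covariate, within set 1 or set 2, or, in VTA at 30 d, with the shallow library kept. In the region comparisons, dStri had 47 members higher and VTA 46 lower with the mouse as a replicate block and without it, and the block changed no count in the other regions. RLE factors moved the median of all genes by at most 0.022 (log2). With only the S24 and SS mice, members higher fell to 0 in BLA and 1 in vHPC, and members lower to 8 in BLA and 1 in NAc. Fewer libraries enter. The shares of all genes called are given here for the main fit only, so a loss of calls over all genes and one of the members cannot be told apart. There, Hist1h1a in BLA (0.0085) and Hist1h1b in NAc (0.042) changed sign, and both missed the threshold with all mice too (-0.09 and -0.12). The calls of Hist1h1b (0.30) and Hist1h1c (-0.15) in VTA, Hist1h1d in PFC (-0.05), Hist1h1e (0.02) and Hist3h2a (0.08) in vHPC, and Hist1h3a (0.16) and Hist1h4j (0.18) in BLA were lost there. With longest transcripts in place of merged exons, the same 12 genes were highest per length. Both lengths are equal in each of these 12, so this check could not change their values and says nothing on the order. The region comparison without a filter was not run. Leaving out the libraries nearest to another region, and the dStri correlations without the library that stands apart, were chosen after seeing the data. Without that library, r at 30 d was 0.58 for Hist1h1b, 0.54 for Hist1h2bl, 0.55 for Hist1h2bm and 0.63 for Hist1h3b. With a median of 31.5 M counts per library, members under 1 CPM rest on few reads.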

Other observations

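Across libraries of 1 region and cohort, the summed level of the members moved with short RNAs that lack a poly(A) tail. Over the 12 combinations of region and cohort (n = 18 to 32 libraries each), the Spearman correlation on the summed level was positive in 12 for Rmrp (median 0.48, range 0.09 to 0.87), in 12 for Rpph1 (median 0.44, range 0.05 to 0.75) and in 11 for Rn7sk (median 0.33, range -0.15 to 0.69). These are descriptions without a test, since the RNAs share library and depth.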
